A study of Mus musculus with 16 samples.

Results

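The genes described here are the circadian clock genes Arntl, Per1, Per2, Per3, Cry1, Ciart, Nr1d1, Nr1d2, Dbp and Tef, taken by symbol from the deposited table, 10 of its 54532 genes. They were measured in inguinal white adipose tissue (iWAT) by bulk RNA sequencing, in male mice that were 8 to 10 weeks old when the experiments started. All 16 mice were fed normal chow with 200 mg/kg doxycycline for 5 days and kept on a 12-h dark-light cycle. All carried Apn-rtTA, a doxycycline-dependent activator driven by the adiponectin promoter, which is used in adipocytes. The 4 Has2_TG mice (Apn-Has2) also carried TRE-Has2, a hyaluronan synthase transgene, and the 4 PH20_TG mice (Apn-PH20) carried TRE-PH20, a hyaluronidase transgene encoded by Spam1. The 4 Has2_WT and the 4 PH20_WT mice were their respective Apn-rtTA littermate controls, so a WT mouse here is not free of the activator. The time of day at which tissue was taken is not given in the sources used here.

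The clock is a transcription loop that runs in nearly every cell, adipocytes included, with a period of about a day. The protein of Arntl (BMAL1) pairs with CLOCK or NPAS2 and switches on the Period, Cryptochrome, REV-ERB, Ciart, Dbp and Tef genes through E-boxes. Period and Cryptochrome proteins and the protein of Ciart then repress that pair, while the REV-ERB receptors of Nr1d1 and Nr1d2 repress Arntl through ROR elements, and DBP and TEF act on D-boxes. Transcripts of Arntl therefore peak at about the opposite time of day from those of Dbp and Nr1d1.

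These 3 kinds of element are present near several of the genes, and the windows below are shown because they place the members in the loop. RefSeq promoters of the GRCm38.p6 build, from 250 bases before to 50 bases after each start, were matched for 9 of the 10 members, with 12 promoters among them. Each window is written 5′ to 3′ on the strand of its gene, and capitals mark the motif. The activator Arntl held 1 ROR element (searched on both strands), which 0.435% of all 32851 promoters and 0.514% of all 27025 genes held.
Arntl ROR element, chr7:113207528-113207557, plus strand: ggaaggcagaAAGTAGGTCAgggacggagg
Perfect E-boxes (letters CACGTG), held by 7.15% of all promoters and 8.09% of all genes, lay in promoters of 4 members, Per1, Cry1, Ciart and Tef. Ciart had 3 of them within its window.
Per1 E-box, chr11:69098773-69098798, plus strand: cacccaagtcCACGTGcagggatgtg
Cry1 E-box, chr10:85185099-85185124, minus strand: tgccggtggtCACGTGgggtgcatgc
Ciart E-box, chr3:95882271-95882296, minus strand: cagggggaggCACGTGcagaaccgca
Tef E-box, chr15:81811266-81811291, plus strand: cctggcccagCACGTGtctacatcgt
D-boxes (letters TTATGTAA, TTACGTAA or TTACATAA, both strands), held by 1.06% of all promoters and 1.23% of all genes, occurred in Per3 alone among the members, at 2 places.
Per3 D-box, chr4:151044853-151044880, minus strand: gacccgcgcgTTATGTAAggtactcggg
Per3 D-box, chr4:151044806-151044833, minus strand: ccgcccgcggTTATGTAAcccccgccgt
The windows of Nr1d1, Nr1d2 and Dbp held none of these letters, which says only that the letters are not in those windows. A cAMP response element (letters TGACGTCA, held by 2.03% of all genes) was also searched and was found in 0 members.

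Depth ranged from 14421692 to 26751729 reads on genes per library. The 8 adipocyte markers all passed the filter on low values, and their summed level lay between 3877 and 9239 FPKM in every library. Transcripts of the Has2 gene were at 1.86 to 3.24 FPKM in Has2_TG and at 0.417 to 0.806 FPKM in Has2_WT. Spam1 had 6, 12 and 5 reads in PH20_TG2, PH20_TG3 and PH20_TG4, but 0 reads in the library labelled PH20_TG1 and in every other library. Has2 itself was at 3.32 FPKM in the library labelled PH20_TG1 and at 3.26 FPKM in PH20_TG4, against 0.330 to 0.897 FPKM in PH20_WT. The library labelled PH20_TG1 thus lacked a read of the transgene in its label, although Spam1 reads were few in PH20_TG2, PH20_TG3 and PH20_TG4 as well. Raised Has2 was not particular to it, since PH20_TG4 shared it. Its label is therefore uncertain. Calls for PH20_TG against PH20_WT are given with and without it, while group means and correlations within the PH20 study include it. B cell markers, 7 genes, summed to 286 and 233 FPKM in Has2_WT1 and Has2_WT2 but to 2.06 and 2.24 FPKM in Has2_WT3 and Has2_WT4. Skeletal muscle markers, 9 genes, ranged from 7.92 to 1084 FPKM in sum across libraries. In bulk tissue, fewer cells of a type and less RNA per cell cannot be told apart.

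Dbp was the most variable of the members with a mean above 50 reads, and the controls of the Has2 study covered its whole range. Dbp encodes a PAR bZIP factor that carries the rhythm of the loop to output genes, and lies at chr7:45705088-45710203 on the plus strand of GRCm38. In Has2_WT replicates 1 to 4 it was at 10.4, 21.1, 52.2 and 5.42 FPKM. In Has2_TG replicates 1 to 4 it was at 6.65, 11.3, 9.07 and 8.93 FPKM. Both the highest and the lowest Dbp level of the 16 libraries thus lay in Has2_WT, and the 4 Has2_TG libraries sat inside that interval. In PH20_WT Dbp was at 8.46, 7.75, 10.4 and 22.3 FPKM. In PH20_TG it was at 9.69, 15.99, 25.1 and 20.6 FPKM, so the groups overlapped, with PH20_WT4 above 3 of the transgenic libraries. Group means ran from 8.99 ± 1.89 (SD, n = 4) in Has2_TG through 12.2 ± 6.81 in PH20_WT and 17.9 ± 6.60 in PH20_TG to 22.3 ± 20.97 in Has2_WT, and every pair of neighbours in that order had overlapping ranges.

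Tef, the other PAR bZIP factor among the members, was likewise highest in Has2_WT3, over a narrower range. It was at 14.6, 18.7, 25.2 and 10.9 FPKM in Has2_WT and at 15.4, 12.3, 14.7 and 12.6 FPKM in Has2_TG. In PH20_WT Tef was at 10.1, 16.1, 12.8 and 14.8 FPKM, and in PH20_TG at 11.8, 19.5, 21.1 and 17.8 FPKM. The lowest Tef value of the 16 was that of PH20_WT1, and in the PH20 study the library labelled PH20_TG1 was the only transgenic library within the range of its controls.

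Arntl, the activator of the loop, showed the mirror image. The gene lies at chr7:113207465-113314126 on the plus strand. Its levels in Has2_WT were 2.26, 1.296, 0.673 and 4.34 FPKM, from 86 reads in replicate 3 to 624 reads in replicate 4. In Has2_TG they were 3.23, 2.13, 3.28 and 3.33 FPKM. The library with the most Dbp had the least Arntl, and the library with the least Dbp had the most. In PH20_WT Arntl was at 2.37, 2.78, 2.51 and 1.85 FPKM, and in PH20_TG at 3.99, 1.20, 1.38 and 1.90 FPKM. PH20_TG2 and PH20_TG3 were below all 4 of their controls, whereas the library labelled PH20_TG1 was above all 4.

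**Figure D1:**
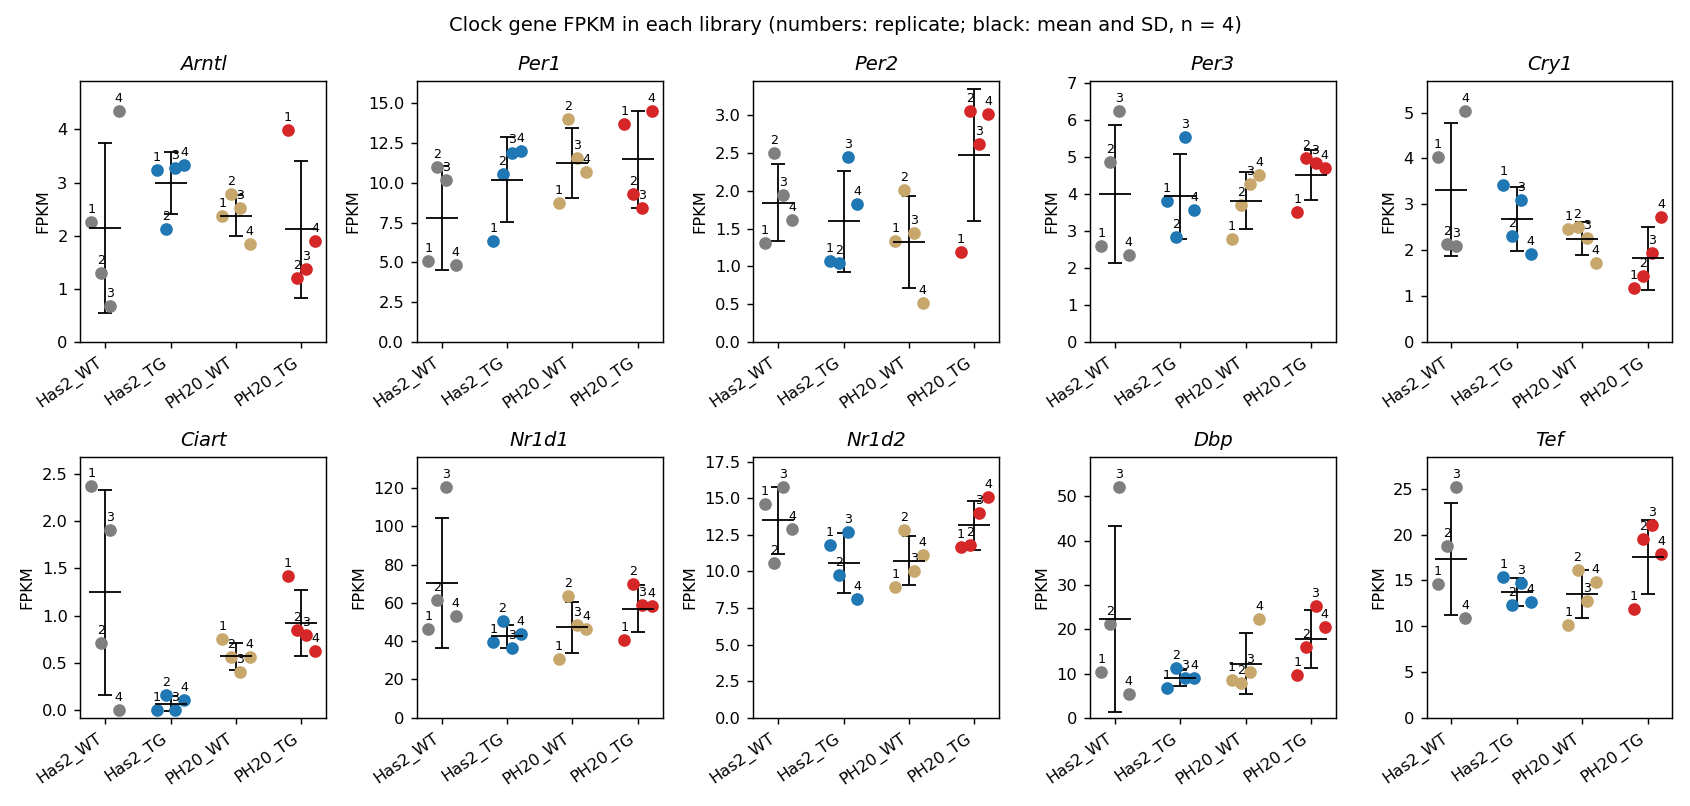
FPKM of each clock gene (linear axis from 0) in the 4 libraries of each group, with replicate numbers beside the points and the mean and SD in black. Has2_WT3 and Has2_WT4 lie at opposite ends for Arntl (0.673 and 4.34) and Dbp (52.2 and 5.42), and Has2_TG lies between them.

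The REV-ERB receptor Nr1d1, which represses Arntl, was the most highly expressed member, with a mean of 54.4 FPKM over the 16 libraries. It lies at chr11:98767932-98775333 on the minus strand. In Has2_WT Nr1d1 was at 46.6, 61.5, 120.7 and 53.2 FPKM, and in Has2_TG at 39.8, 50.5, 36.6 and 43.9 FPKM. Of the Has2_TG libraries only Has2_TG2 reached into the range of the controls. In PH20_WT it was at 30.8, 63.4, 48.5 and 46.3 FPKM, and in PH20_TG at 40.7, 70.1, 58.9 and 58.3 FPKM. The second receptor, Nr1d2, was the steadiest member. It was at 14.6, 10.6, 15.8 and 12.9 FPKM in Has2_WT and at 11.8, 9.79, 12.7 and 8.11 FPKM in Has2_TG. In PH20_WT Nr1d2 was at 8.91, 12.8, 10.0 and 11.2 FPKM, and in PH20_TG at 11.7, 11.8, 14.03 and 15.1 FPKM. The ranges met in both studies.

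Among the Period genes, which encode repressors of the BMAL1 pair, Per3 moved with Dbp while Per1 and Per2 had patterns of their own. Per3 was at 2.59, 4.85, 6.23 and 2.35 FPKM in Has2_WT, at 3.80, 2.83, 5.54 and 3.56 FPKM in Has2_TG, at 2.78, 3.71, 4.26 and 4.52 FPKM in PH20_WT and at 3.50, 4.97, 4.84 and 4.70 FPKM in PH20_TG. Its highest and lowest values were both in Has2_WT, in the same 2 libraries as those of Dbp. Per1, which also responds to glucocorticoids and other acute signals, was at 5.10, 10.99, 10.2 and 4.84 FPKM in Has2_WT and at 6.33, 10.6, 11.9 and 12.0 FPKM in Has2_TG. In PH20_WT Per1 was at 8.72, 14.02, 11.5 and 10.7 FPKM, and in PH20_TG at 13.7, 9.28, 8.43 and 14.5 FPKM. Low Per1 was found in Has2_WT1, Has2_WT4 and Has2_TG1. Per2 was at 1.32, 2.51, 1.95 and 1.61 FPKM in Has2_WT and at 1.07, 1.05, 2.44 and 1.82 FPKM in Has2_TG. In PH20_WT it was at 1.34, 2.01, 1.44 and 0.521 FPKM, and in PH20_TG at 1.20, 3.06, 2.62 and 3.02 FPKM. The 3 highest Per2 values of all libraries were those of PH20_TG2, PH20_TG3 and PH20_TG4, and the library labelled PH20_TG1 lay among the controls.

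Cry1, a cryptochrome repressor whose transcript peaks later than those of the Period genes, was highest in Has2_WT4. It was at 4.03, 2.13, 2.10 and 5.03 FPKM in Has2_WT, at 3.43, 2.31, 3.09 and 1.92 FPKM in Has2_TG, at 2.47, 2.51, 2.28 and 1.73 FPKM in PH20_WT and at 1.19, 1.43, 1.94 and 2.73 FPKM in PH20_TG. Has2_WT4 thus held the highest level of both Arntl and Cry1. Ciart, which represses the BMAL1 pair, was the least expressed member. It had 146, 28, 73 and 0 reads in Has2_WT and 0, 6, 0 and 5 reads in Has2_TG, or 2.37, 0.710, 1.90 and 0 FPKM and 0, 0.160, 0 and 0.106 FPKM. A count of 0 reads allowed up to 0.0695 FPKM in Has2_WT4, 0.0526 FPKM in Has2_TG1 and 0.0709 FPKM in Has2_TG3. In PH20_WT Ciart had 39, 20, 18 and 20 reads and in PH20_TG 55, 38, 30 and 20 reads. Low Ciart was therefore found in all 4 Has2_TG libraries and in Has2_WT4, and in no library of the PH20 study.

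Parts of some members overlap other genes, and the strand setting of the counting is not given in the sources used here, so reads in the shared stretches are uncertain. Ciart lies wholly within the antisense gene C920021L13Rik (mean 0.899 FPKM), Nr1d1 shares 1075 bases with Thra on the other strand (mean 29.3 FPKM) and Dbp shares 737 bases with Sphk2 (mean 8.77 FPKM). Arntl shares 2394 bases with Gm45355 (mean 0.0101 FPKM) and Tef 193 bases with Gm17597 (mean 0.384 FPKM), each on the other strand. Per3 lies within the span of Camta1 (mean 0.636 FPKM) on the same strand, where the strand setting would not separate them.

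The Has2 comparison asked whether adipocyte Has2 expression changed these genes. Nr1d1 fell by 0.63 on the log2 scale in Has2_TG (SE 0.28, adjusted p = 0.489, limma over 12606 genes, exact permutation p = 0.0571). It was the only 1 of the 9 members tested that was called, a gene being called at an unadjusted limma p under 0.05, while 10.0% of all genes tested were called and 3.75% were called lower. Dbp differed by -0.83 (SE 0.57, exact permutation p = 0.343) and Arntl by 0.73 (SE 0.48, exact permutation p = 0.257), the largest differences with the widest errors. Nr1d2 differed by -0.35 (exact permutation p = 0.114), Per1 by 0.44 (exact permutation p = 0.200), and the other members by between -0.27 and 0.05. Fold changes are on the log2(FPKM + 0.1) scale, which understates changes of low genes, and adjusted p-values are Benjamini-Hochberg values over all genes tested. An adjusted p under 0.05 was reached by 0.103% of all genes and by no member. The exact permutation tests are two-sided on the difference of log2 means, and with 4 libraries a group they cannot go below 0.0286. The median over the 9 members was -0.24, against -0.03 over all genes. The call of Nr1d1 did not hold without Has2_WT3, where the difference was -0.33 (adjusted p = 0.558, limma), and it was also lost without Has2_WT2 (-0.66), Has2_TG1 (-0.60), Has2_TG3 (-0.56) or Has2_TG4 (-0.64). Without Has2_WT2 the 1 member called was Nr1d2 (-0.46, adjusted p = 0.630, limma). Without Has2_WT4, 3 members were called by limma, with 11.6% of all genes called, Nr1d1 (-0.73), Arntl (1.16, adjusted p = 0.289) and Dbp (-1.34, adjusted p = 0.308). Ciart had a mean of 32.25 reads, under the minimum of 50, and was tested only where no minimum was set. Its difference was then -2.39 (exact permutation p = 0.143, adjusted p = 0.753 by limma), a value that depends on the pseudocount because several libraries were at 0. Ciart was the 1 member called by limma in that fit, where 1664 of 25564 genes were called, and the call of Nr1d1 was lost there. Adipocyte progenitor markers, 5 genes, summed to 326 to 525 FPKM in Has2_TG and to 83.1 to 217 FPKM in Has2_WT, so their sums did not overlap between the groups compared here. Macrophage markers, 4 genes, summed to 68.3 to 130 FPKM and to 33.3 to 80.1 FPKM. All of these markers passed the filter on low values, and their part in the results was not tested.

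The PH20 comparison asked the same of hyaluronidase expression. By limma, 0 of 9 members were called, with 6.59% of all 12532 genes called. The largest difference was that of Per2 (0.90, SE 0.43, exact permutation p = 0.114). Nr1d2 differed by 0.29 (SE 0.15, exact permutation p = 0.114) and Nr1d1 by 0.29 (SE 0.24, exact permutation p = 0.371). Dbp differed by 0.60 (SE 0.39, exact permutation p = 0.257), Tef by 0.37 (SE 0.21, exact permutation p = 0.171) and Arntl by -0.30 (SE 0.35, exact permutation p = 0.486). The members' median was 0.29, against 0.01 over all genes. Without the library labelled PH20_TG1, which had no Spam1 read, 4 of 9 members were called by limma, with 9.35% of all 12510 genes called. Per2 (1.20, adjusted p = 0.516), Tef (0.55, adjusted p = 0.516) and Dbp (0.86, adjusted p = 0.533) were then higher in PH20_TG, and Arntl (-0.65, adjusted p = 0.516) was lower. For Per2, Per3 and Tef the 3 remaining transgenic libraries were then all above the 4 controls, for which the exact permutation p = 0.0571 is the smallest this design allows. Groups that did not overlap were found for 10.3% of all genes with that library left out. Leaving out PH20_TG2, PH20_TG3 or PH20_TG4 instead gave 0 members called by limma, and leaving out 1 control library gave from 0 to 2.

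**Figure D2:**
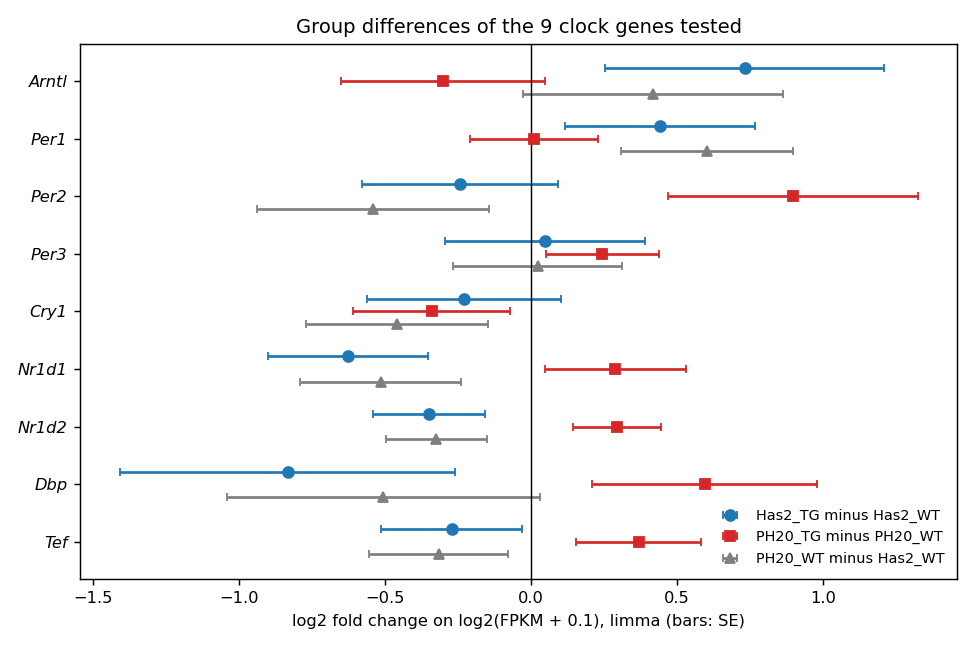
Differences between groups for the 9 clock genes tested, as log2 fold changes with SE from limma (x axis), for each study and for the 2 control groups. In the Has2 study Nr1d1 is at -0.63 and Dbp at -0.83, and in the PH20 study they are at 0.29 and 0.60.

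The effects in the 2 studies, which share no library, had opposite signs for 6 of the 9 members, namely Arntl, Per2, Nr1d1, Nr1d2, Dbp and Tef. The share of all genes with opposite signs was not counted, so this number is not read as a trait of the members. The difference itself was tested as the transgene effect of the PH20 study minus that of the Has2 study in 1 fit of all 16 libraries. It was called for both REV-ERB genes, Nr1d1 (0.92, SE 0.39, adjusted p = 0.613, limma) and Nr1d2 (0.64, SE 0.24, adjusted p = 0.606, limma). That is 2 of 9 members, both higher, with 7.70% of all genes called and 3.68% called higher. For Dbp the difference was 1.43 (SE 0.76), for Per2 1.14 (SE 0.56), for Tef 0.64 (SE 0.34) and for Arntl -1.03 (SE 0.63), and these were not called. Ciart, tested only where no minimum was set, was called there (2.96, adjusted p = 0.830, limma), with 1542 of 27976 genes called. That value also depends on the pseudocount. The Nr1d2 difference was called under all 27 alternatives run, with values from 0.52 to 0.79, and that of Nr1d1 under 21 of 27, not under the other 6, among them the fit without Has2_WT3 (0.62). Without the library labelled PH20_TG1, 6 of 9 members were called, Arntl, Per2, Nr1d1, Nr1d2, Dbp and Tef, with 10.7% of all 12572 genes called and again no member with an adjusted p under 0.05.

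The 2 control groups carried the same activator and diet, so their comparison gives the difference between groups without either transgene, in which line, cohort and litter cannot be told apart. Of the 9 members 0 were called (PH20_WT against Has2_WT, limma), with 10.3% of all genes called. Per1 was at 11.2 ± 2.20 FPKM (SD, n = 4) in PH20_WT and 7.78 ± 3.27 FPKM in Has2_WT, a difference of 0.60 on the log2 scale (exact permutation p = 0.171). Nr1d1 differed by -0.52 (exact permutation p = 0.257) and Nr1d2 by -0.32 (exact permutation p = 0.114). This comparison shares its libraries with both studies. No member had groups that did not overlap in either study (0 of 10), where 6.19% of all genes in the Has2 study and 4.54% in the PH20 study had such groups.

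Variation within groups was large for some members and small for others. Within Has2_WT the SD on the log2 scale was 1.39 for Dbp and 1.08 for Arntl, against a median of 0.35 over 12593 genes. Within Has2_TG it was 0.31 for Dbp and 0.30 for Arntl, at the median of 0.31 for all genes in that group. Pooled over the 4 groups, 90.4% of genes varied less than Dbp and 84.5% less than Arntl, but only 22.7% varied less than Nr1d2.

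The libraries could be ordered by the ratio of Dbp to Arntl, both in FPKM. The ratio was 4.599, 16.3, 77.5 and 1.25 in Has2_WT and 2.06, 5.30, 2.76 and 2.68 in Has2_TG. In PH20_WT it was 3.57, 2.79, 4.13 and 12.1, and in PH20_TG 2.43, 13.4, 18.2 and 10.8. A ratio under 3 was thus shared by Has2_WT4, 3 of the Has2_TG libraries, PH20_WT2 and the library labelled PH20_TG1, and a high ratio by Has2_WT3, PH20_TG3 and Has2_WT2. Each group other than Has2_TG held libraries on both sides of a ratio of 10.

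**Figure D3:**
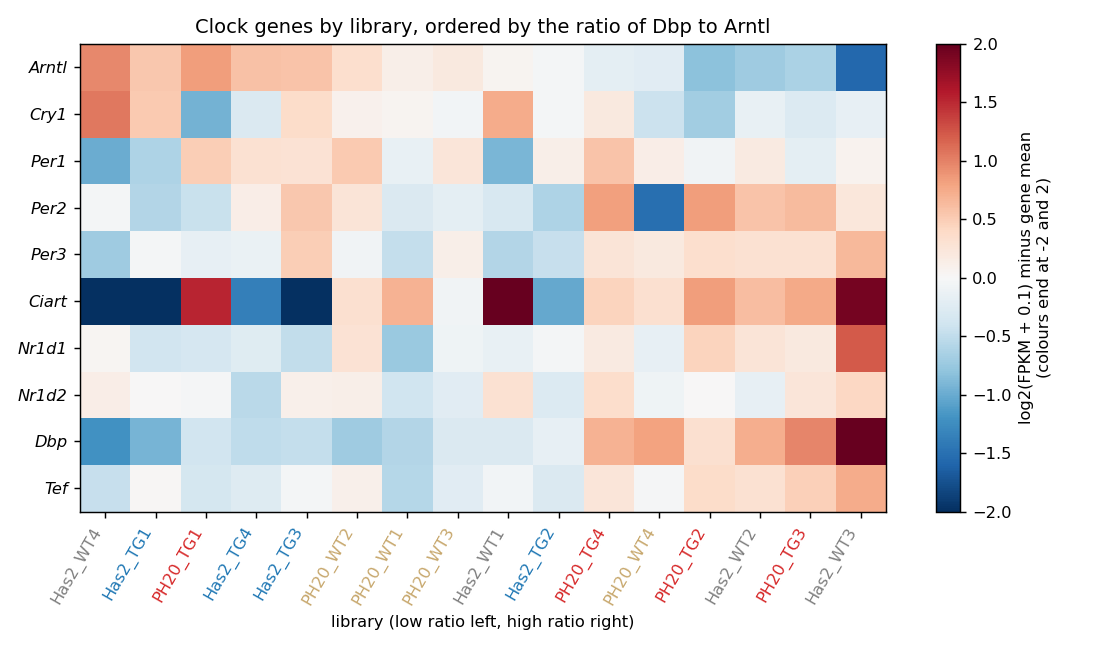
Level of each clock gene in each library, as log2(FPKM + 0.1) minus the mean of the gene over 16 libraries, with libraries ordered by the ratio of Dbp to Arntl from 1.25 (Has2_WT4) to 77.5 (Has2_WT3). Arntl falls along the order while Dbp, Tef and Nr1d1 are highest at its right end, and Has2_WT lies at both ends.

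Arntl was compared with each of the other 9 members across libraries, a family of 9 relations. Over the 16 libraries Pearson's r was -0.907 with Dbp (permutation p = 1e-05, the smallest that 100000 permutations can give, adjusted over the 9 relations 9e-05) and Spearman's rho was -0.862 (permutation p = 5e-05, adjusted 0.00045). With Tef r was -0.815 (permutation p = 0.00014, adjusted 0.00063) and rho -0.738 (adjusted permutation p = 0.00662). With Nr1d1 r was -0.750 (permutation p = 0.00091, adjusted 0.00273) and rho -0.626 (adjusted permutation p = 0.0329). Lower Arntl thus went with higher levels of the PAR bZIP factors and of its repressor. Per3 (r = -0.617, rho = -0.603, adjusted permutation p = 0.0244 for r and 0.0339 for rho) and Ciart (r = -0.588, rho = -0.560, adjusted permutation p = 0.0299 and 0.0484) also passed, so 5 of 9 relations had an adjusted p under 0.05, all negative. Cry1 had a positive r of 0.343 (permutation p = 0.193), and Per1 (-0.117), Per2 (-0.311) and Nr1d2 (-0.332) did not pass.

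The relation of Arntl to Dbp was also present after group means were removed, when r was -0.892 (permutation p = 3e-05, with 16 libraries and 4 fitted means). The permutation ran over all 16 libraries, not within groups. The SD of Arntl on the log2 scale was 1.08 in Has2_WT and 0.24 in PH20_WT, so this p is approximate and Has2_WT weighs most in this r. Within the Has2 study it was -0.982 (exact permutation p = 0.000174, adjusted 0.00156, n = 8), and within the PH20 study -0.730 (exact permutation p = 0.0422, adjusted 0.185, n = 8). Without Has2_WT3 and PH20_TG2, the libraries farthest from the median of Arntl, r was -0.873 (permutation p = 5e-05), and of the 5 relations only those with Dbp and Tef (r = -0.671, adjusted permutation p = 0.0384) then passed. Without Has2_WT3 and Has2_WT4 it was -0.812 (permutation p = 0.00059), and without the library labelled PH20_TG1 -0.925 (permutation p = 2e-05). That with Nr1d1 also passed without Has2_WT3 and Has2_WT4 (r = -0.674, adjusted permutation p = 0.0275), and those with Nr1d1, Per3 and Ciart passed without the library labelled PH20_TG1 (adjusted permutation p = 0.00468, 0.0206 and 0.00345). Of single libraries, leaving out Has2_WT3 ended all 3 of these (adjusted permutation p = 0.0912, 0.115 and 0.115), Has2_WT4 those with Per3 and Ciart, and Has2_TG1, Has2_TG3 or Has2_TG4 that with Ciart. Within the PH20 study 0 of 9 relations passed after adjustment. That with Ciart had the opposite sign within the PH20 study (r = 0.206).

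**Figure D4:**
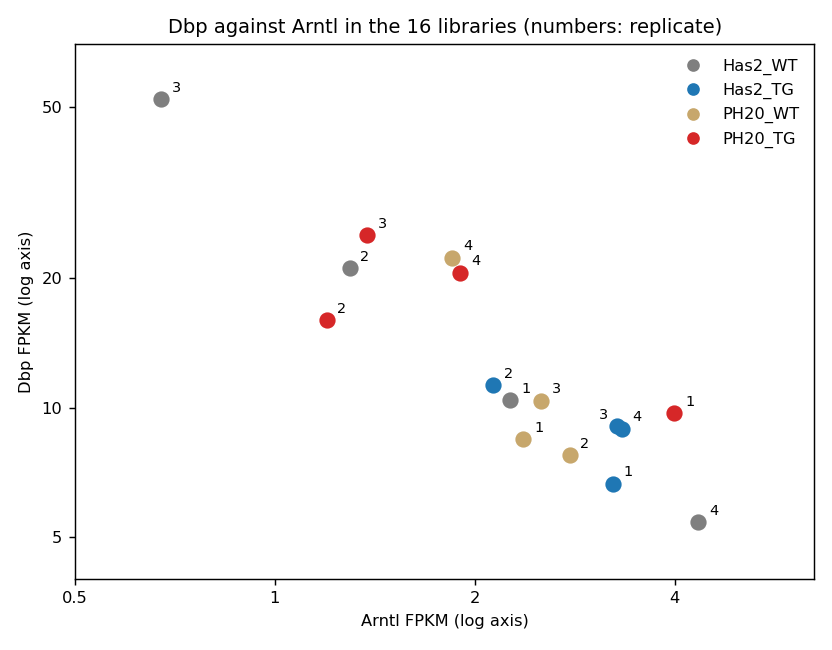
Dbp against Arntl in FPKM (both axes logarithmic), 1 point per library with its replicate number, coloured by group. The points fall along a descending line (r = -0.907), with Has2_WT3 at the upper left, Has2_WT4 at the lower right and the Has2_TG libraries in the lower right part.

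Dbp was used to find the genes with the most similar pattern, among 12592 others above a mean of 50 reads, as a description with no test. Arntl had the lowest r of all of them. Tef, with r = 0.800, was 7th from the top, Per3 (0.710) 88th and Nr1d1 (0.705) 101st. The other members were less like Dbp, with Nr1d2 (0.403) 1635th, Per1 (0.285) 2829th, Per2 (0.224) 3492nd and Cry1 at -0.442. For Nr1d1 r was 0.462 without Has2_WT3 and 0.401 within the PH20 study. The 10 highest were Slc5a6, a vitamin transporter (0.890), Pip4p1 (0.840), Rrs1 (0.835), Smdt1, a subunit of the mitochondrial calcium uniporter (0.826), Ndufb11, a complex I subunit (0.802), Apoc3 (0.800), Tef, Immp2l (0.799), Naa38 (0.796) and Mcat (0.791). Below Arntl the lowest were Dtx4 (-0.862), Gm44891 (-0.829), Smarca2 (-0.814), Hspa8, a constitutive heat shock chaperone (-0.814), Pkia (-0.806), Mturn (-0.803), Fut10 (-0.801), Etv5 (-0.799) and Pbxip1 (-0.788). An r above 0.7 was reached by 112 genes and one below -0.7 by 58 genes.

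**Figure D5:**
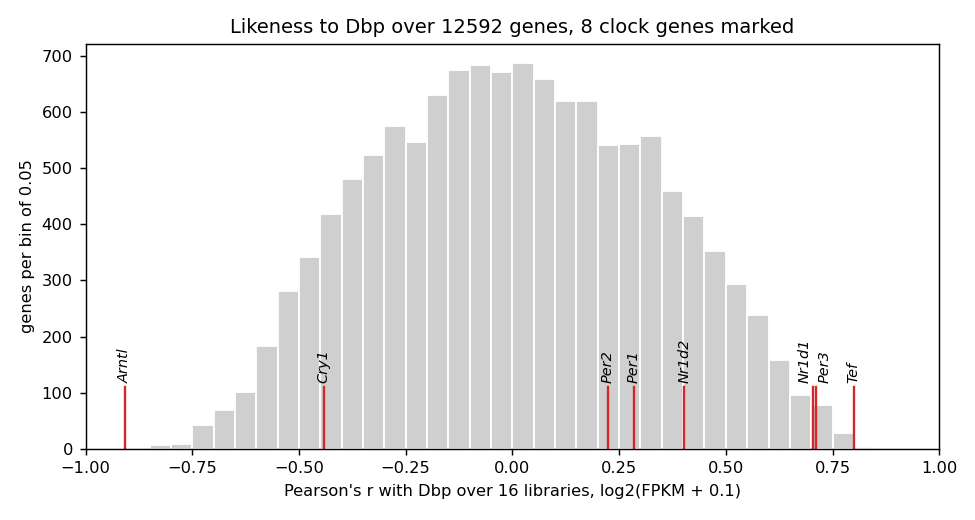
Number of genes (y axis) by Pearson's r with Dbp over 16 libraries (x axis, bins of 0.05), with the 8 other clock genes that passed the filter marked in red. Arntl is at the far left (-0.907), and Tef, Per3 and Nr1d1 are near the right end (0.800, 0.710 and 0.705).

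The likeness to Dbp also went with other properties of the libraries, whose part in the result was not tested. For gene length, log2 levels were first centred on the mean of each gene over the 16 libraries. The median over genes shorter than 1000 bases minus that over genes longer than 4000 bases had r = 0.570 with Dbp (permutation p = 0.0212, adjusted over 9 measures 0.113) and rho = 0.682 (adjusted permutation p = 0.0407). Within the PH20 study that r was 0.862 and within the Has2 study 0.458. It was 0.515 without Has2_WT3 and PH20_TG3, the libraries farthest from the median of Dbp. The mean log2 level of the adipocyte progenitor markers had r = -0.517 with Dbp, that of the macrophage markers -0.557 and that of the 5 brown or beige adipocyte markers 0.4996 (adjusted permutation p = 0.113 for each). Without Has2_WT3 and PH20_TG3 these were -0.266, -0.345 and 0.205. Over the 16 libraries r was -0.428 for endothelial markers (adjusted permutation p = 0.177), 0.259 for adipocyte, 0.109 for T cell, 0.0252 for skeletal muscle and -0.0574 for B cell markers. Has2_WT1 and Has2_WT2, rich in B cell markers, had Dbp at 10.4 and 21.1 FPKM, between the values of Has2_WT3 and Has2_WT4, where those markers were at 2.06 and 2.24 FPKM.

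Of 46 other clock, glucocorticoid-responsive and temperature-responsive genes, 40 were tested in the Has2 study, and 5 were higher and 1 lower in Has2_TG, that is 6 of 40 called against 10.0% of all genes. The higher ones included Nfil3 and Usp2. Nfil3, a repressor that competes with DBP at D-boxes, was at 3.95, 4.22, 3.40 and 5.69 FPKM in Has2_WT and at 9.09, 7.91, 7.91 and 6.04 FPKM in Has2_TG (0.84, SE 0.21, adjusted p = 0.142, limma). Usp2, a deubiquitinase that acts on clock proteins, was at 1.41, 2.08, 2.26 and 1.63 FPKM in Has2_WT and at 4.46, 3.53, 3.60 and 2.77 FPKM in Has2_TG (0.93, SE 0.24, adjusted p = 0.158, limma). Neither gene's groups overlapped, as for 6.19% of all genes in the Has2 study, and both were looked at because they were called. The glucocorticoid-responsive genes Cebpd (0.96, adjusted p = 0.105) and Dusp1 (0.88, adjusted p = 0.0912) and the output gene Cys1 (1.47, adjusted p = 0.474) were also higher, and Mthfd1l (-2.40, adjusted p = 0.294) was lower. The groups of Cebpd (at most 6.89 FPKM in Has2_WT, at least 8.37 FPKM in Has2_TG) and Dusp1 (15.4 and 18.6 FPKM) did not overlap either. Of the 9 glucocorticoid-responsive genes tested, Per1 among them, these 2 were the ones called. The median of the 9 was 0.44, and Fkbp5 was at -0.23.

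In the PH20 study 41 of these genes were tested, and 3 were higher and 1 lower in PH20_TG, that is 4 of 41 called against 6.59% of all genes. The glucocorticoid-responsive Fkbp5, a chaperone of the glucocorticoid receptor (0.89, adjusted p = 0.664), and Dusp1, a MAP kinase phosphatase (1.58, adjusted p = 0.664), and Leo1 (0.57, adjusted p = 0.702) were higher, and Cys1 (-0.86, adjusted p = 0.709) was lower. Fkbp5 and Dusp1 were 2 of 9 glucocorticoid-responsive genes tested. The median of the 9 was 0.35, with Cebpd at 0.16 and Per1 at 0.01. Dusp1 was at 12.5, 10.1, 10.4 and 7.54 FPKM in PH20_WT and at 51.6, 17.4, 17.2 and 52.8 FPKM in PH20_TG, where the library labelled PH20_TG1 was 1 of the 2 highest. Without that library all 4 genes were still called by limma, Fkbp5 at 0.91 (adjusted p = 0.516), Dusp1 at 1.32 (adjusted p = 0.516), Leo1 at 0.60 (adjusted p = 0.521) and Cys1 at -1.04 (adjusted p = 0.516). Npas2 (-0.72, adjusted p = 0.516), Hspa8 (-0.46, adjusted p = 0.516) and Mthfd1l (-1.71, adjusted p = 0.525) were then called as well, each lower in PH20_TG. In that fit 9.35% of all 12510 genes were called. None of these had an adjusted p under 0.05 by limma, in either study. Of Clock, Npas2 and Arntl2, listed as activators and partners, 0 of 3 were called in either study with all of its libraries in the fit. Clock and Npas2, which encode the partners of BMAL1, had an r of -0.631 and -0.681 with Dbp over the 16 libraries, the same sign as Arntl, but within the PH20 study r was -0.080 for Clock and -0.453 for Npas2. For the difference between the studies, 41 were tested, and 2 were called higher and 3 lower by limma, against 7.70% of all genes called. Nfil3 (-0.90, adjusted p = 0.606), Usp2 (-0.82, adjusted p = 0.607) and Cys1 (-2.33, adjusted p = 0.598) had a lower transgene effect in the PH20 study. Fkbp5 (1.12, adjusted p = 0.598) had a higher one, and the other gene called is not reported here. In the control groups 7 of 41 were called, against 10.3% of all genes, with Sgk1 (0.996), Cys1 (1.73) and Usp2 (0.54) higher in PH20_WT and Leo1 (-0.81), Fkbp5 (-0.60), Gsk3b (-0.39) and Csnk2a1 (-0.29) lower. Their adjusted p ran from 0.303 to 0.476 (limma). Cys1, Usp2, Leo1 and Fkbp5 were called both between controls and in a transgene comparison. These comparisons share control libraries, so the calls are not separate results. Of the 4 groups, Has2_WT had the lowest mean of Cys1 (1.86 FPKM) and Usp2 (1.85 FPKM), and PH20_WT that of Leo1 (3.03 FPKM) and Fkbp5 (2.60 FPKM).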

How the data were processed

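Bulk RNA sequencing of iWAT gave 16 libraries, 4 per group. Per the submitters' processing notes, reads were handled with FastQC 0.11.9, STAR 2.7.9a, MultiQC 1.12 and DESeq2 on the GRCm38 build. The authors deposited FPKM per gene. Multiplied by gene length, all values were whole multiples (within 0.01 read) of 1 step per library, so the reads behind each value were recovered, and the library totals used for the FPKM equalled median-of-ratios scaling. Groups were taken from the labels. Nothing says how mice were processed beyond being littermates, so p-values measure the spread between these samples. Each pair of libraries differed by more than sampling noise (chi-square per degree of freedom at least 28.7).

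Differences were tested with limma 3.58.1 (R 4.3.3), two-sided, with a variance trend on log2(FPKM + 0.1), over genes whose mean reached 50 reads in the libraries of the fit. A gene was called at an unadjusted p under 0.05, the threshold of the study's methods, with Benjamini-Hochberg values beside it. Each study was fitted on its 8 libraries, and the difference between studies and the controls on all 16. Correlations used 100000 permutations, or every pairing for 8 libraries. The procedure was tested on simulated data. The members and gene lists were chosen with earlier results of these data known. Genes were named by rule, as all 10 members, every gene of the other lists called in a comparison, and the 10 genes with the highest and the 10 with the lowest r with Dbp. The result of 1 listed gene is not reported here. Other list genes given with values (Clock and Npas2) were chosen after their values were seen. Alternatives were another pseudocount, filters, scalings, weights, the replicate block, muscle and B cell scores as covariates, and leaving out each library. Total-reads scaling and the fit without both Has2_WT3 and Has2_WT4 were added after seeing the data, as was an exact permutation test of each member (scipy 1.17.1).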

Additional observations from a re-analysis of the deposited data

Results flagged for a closer look

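Arntl in Has2_TG2, at 2.13 FPKM, lay far below the other 3 Has2_TG libraries (3.23 to 3.33 FPKM), relative to the range of that group. Of 40 groups of 4 libraries examined for the 10 members, this was the only 1 with such a gap, and chance gives about 1 in 20. In the same library Dbp was the highest of its group, at 11.3 FPKM. The transgene effects of the 2 studies differed for Nr1d1 by 0.92 on the log2 scale (adjusted p = 0.613) and for Nr1d2 by 0.64 (adjusted p = 0.606), by limma over all 16 libraries.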

How the results depend on the processing

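No member had an adjusted p under 0.05 in any of the 93 fits over the 4 comparisons, and of 1044 alternative values for single members or relations 925 kept their direction and their side of the threshold, 46 lost a call, 43 gained one and 30 changed sign. The cause was not tested. With 1 library left out, the members called ranged from 0 to 3 in the Has2 study, 0 to 4 in the PH20 study, 1 to 6 for the difference and 0 to 2 for the controls, and the relations of Arntl that passed from 2 to 6. In the Has2 study 0 were called by the exact permutation test, without a variance trend, with the replicate block or with the muscle score as a covariate. In the PH20 study 1 was called with quantile normalization (Per2), 1 with all 16 libraries in 1 fit (Per2) and 1 with the muscle score (Nr1d2). In the controls 1 was called with total-reads scaling, 1 with voom weights and 2 with the muscle score. Not every same-numbered pair of libraries deviated together (r of -0.18 to 0.13 in the Has2 study and -0.04 to 0.42 in the PH20 study), and 1 of 8 and 4 of 8 libraries correlated best with their own number, so the numbers were not taken to pair them. With the replicate block 2 members were called in the PH20 study (Nr1d1 and Tef), 3 for the difference and 1 in the controls, and the genes called in the PH20 study went from 826 to 1302. Of the relations of Arntl, 1 passed within the Has2 study by rank, 0 within the PH20 study by either measure, 3 without Has2_WT3 and Has2_WT4, and 2 without the 2 libraries farthest from its median. Signs changed for Per1 in the PH20 study (-0.061 with total-reads scaling, -0.068 with voom weights, -0.17 with the B cell score, and -0.11 to 0.14 with 1 library left out), for Cry1 with the muscle score (0.32 in the PH20 study and 0.12 for the difference, which ranged from -0.34 to 0.070 with 1 library left out), and for Per3 between controls (-0.016 with quantile normalization, and -0.19 to 0.27 with 1 library left out). With 1 library left out they also changed for Per3 in the Has2 study (-0.16 to 0.29) and for the difference (-0.050 to 0.41), and for Dbp between controls (-1.02 to 0.065, the latter without Has2_WT3). For relations, Arntl and Per1 had 0.124 by rank, 0.622 and 0.571 (by rank) within the PH20 study, 0.159 without Has2_WT3 and Has2_WT4 and -0.229 to 0.119 with 1 library left out, Arntl and Cry1 had -0.0435 and Arntl and Ciart 0.206 within the PH20 study. Median-of-ratios scaling gave the deposited values again. Precision of Ciart, with 0 to 146 reads, is limited by depth, and 4 mice per group limit the rest.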
